A study of Mus musculus with 6 samples.

Results

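Oxidative phosphorylation is the last stage of aerobic energy metabolism, carried out by 5 protein complexes of the inner mitochondrial membrane. Complexes I and II take electrons from NADH and succinate, complex III passes them to cytochrome c, complex IV hands them to oxygen, and complex V, the ATP synthase, makes ATP from the proton gradient that complexes I, III and IV build. Macrophages are known for shifting between this pathway and glycolysis with their state of activation, and for that reason its genes are often compared between macrophage populations. The genes described here are nuclear genes of the pathway, chosen by name from the deposited gene tables: Nduf a, b, c, s and v genes with a number, Sdha to Sdhd, Uqcr genes, Cyc1, Cox4 to Cox8 and Atp5 genes. The rule took 84 of 24822 gene symbols, 35 of complex I, 4 of complex II, 9 of complex III, 20 of complex IV and 16 of complex V. Ndufa4 and its paralog Ndufa4l2 were placed in complex IV, where the Ndufa4 protein sits. Cox7a2l, a factor of respiratory supercomplexes, and Atp5s, an ATP synthase coupling factor, carry names that the rule takes although they are no subunits. Ndufab1, the acyl carrier protein of complex I, lies outside the rule, and the mitochondrially encoded subunits were not analysed here.

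The libraries were made from macrophages of C57BL/6 Macblue x Cx3cr1egfp/+ mice, taken from the injured (ipsilateral) sciatic nerve at 14 days after the injury that the labels abbreviate as CCI. All cells were sorted as CD64+ CD11b+ SiglecF- Ly6G- and then divided by reporter into ECFP+ cells, called recruited here after the study's term for recently arrived macrophages, and EGFP+ cells, called resident. ECFP in Macblue mice is driven by a modified Csf1r promoter, and EGFP replaces 1 copy of Cx3cr1, so every mouse of both groups had a single working Cx3cr1 allele. Each group had 3 libraries, each from about 400 cells pooled from 3 mice with 1 nerve each, and uninjured nerves are not compared. Total expected counts (reads assigned to genes) were 16688848 to 21314935 in the recruited libraries and 19941233 to 27547336 in the resident ones, and 3 counts amount to 0.105 to 0.179 CPM (counts scaled to a common library size with TMM factors) across the 6 libraries. The macrophage markers Csf1r (1181 to 1604 CPM in recruited and 999 to 1484 CPM in resident libraries) and Lyz2 (30003 to 40440 CPM in recruited and 32523 to 35534 CPM in resident libraries) were abundant in every library, and the gated-out neutrophil marker Ly6g had no count in any. Differences are recruited minus resident on the log2 scale, so that a negative value is a gene lower in recruited macrophages. The macrophage markers were not all level between groups. Of the 11 in the list, 5 had negative and 6 positive differences, from -1.26 for Aif1 to 0.88 for Itgam. In bulk samples such as these, fewer cells of a type and less RNA per cell cannot be told apart.

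Of the 84 genes, 80 had enough counts to be tested, and the log2 difference was negative for 75 of these and positive for 5. The median difference over the 80 was -0.56, beside 0.01 over all 11354 tested genes. None of the 80 passed the adjusted p threshold of 0.05 in edgeR's quasi-likelihood test, where 0.317% of all tested genes did (0.255% lower and 0.0617% higher in recruited macrophages). The smallest adjusted p among them was 0.105 in edgeR, for Ndufb11. At an unadjusted p under 0.05 there were 51 members lower and 1 higher, against 8.65% and 8.13% of all tested genes. The 3 recruited libraries all lay below the 3 resident ones for 49 members, and all above them for 1, against 12.6% and 12.2% of all tested genes.

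The adjusted calls depended on the tool and on 1 library. DESeq2 called 28 members lower and 0 higher, against 3.45% and 2.72% of its genes, and limma-voom called 0 lower and 0 higher, against 0.211% and 0.0705%. In edgeR without resident replicate 1 there were 44 members called lower and 0 higher, against 2.81% and 2.19% of the genes tested. With resident replicate 1 as the sole resident library, 6 members were lower and 0 higher at an unadjusted p under 0.05, against 4.38% and 7.41% of genes, and the members' median was -0.17. That fit assumes that the lone library varies as the recruited ones do.

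**Figure D1:**
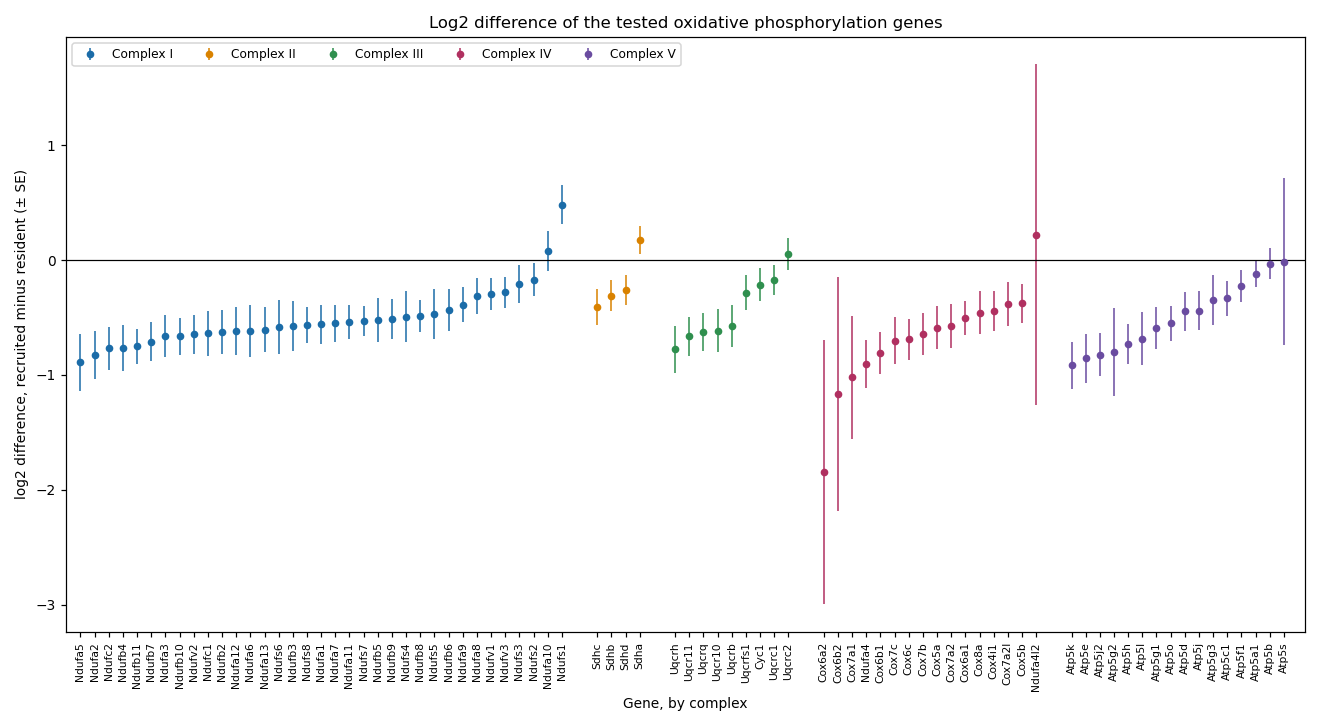
Log2 difference (recruited minus resident, with its standard error) of the 80 tested genes, grouped by complex and ordered within it. The points of complexes I, III, IV and V lie mostly between -1 and 0, complex II lies nearer to 0, and Ndufs1 at 0.48 is the 1 positive point with an unadjusted p under 0.05.

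Complex I, the NADH dehydrogenase, had a median difference of -0.56 over its 35 genes. At an unadjusted p under 0.05 in edgeR's test, 26 were lower and 1 was higher. At that level 8.65% of all tested genes were lower and 8.13% higher, the shares to set beside the counts of each complex. The 28 accessory subunits of complex I, which surround the catalytic centre, had a median of -0.58 with 23 lower. Its 7 nuclear core subunits had a median of -0.30 with 3 lower and 1 higher. Accessory and core genes also differed in transcript length, given below, and the part of length in this contrast was not tested. All 10 Ndufb genes, whose proteins lie in the distal membrane arm, were lower at that level, with differences from -0.77 to -0.43.

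Ndufb11, an accessory subunit of the membrane arm, had 72.9, 65.6 and 67.5 CPM in the recruited libraries, against 98.4, 132 and 117 CPM in the resident ones. The groups did not overlap, and resident replicate 1 lay nearest to the recruited libraries. The log2 difference was -0.75 ± 0.16 (SE, n = 3 in each group; edgeR adjusted p = 0.105), and the gene overlaps Rbm10 in the RefSeq annotation. Ndufc2, another membrane-arm subunit, had 88.6, 77.5 and 79.1 CPM in recruited and 105, 160 and 152 CPM in resident libraries, a difference of -0.77 ± 0.18 (edgeR adjusted p = 0.120). Ndufb7, also of the membrane arm, averaged 114 ± 4.56 CPM in recruited and 187 ± 38.1 CPM in resident libraries (SD, n = 3 each), a difference of -0.71. The resident libraries of all 3 genes were spread more widely than the recruited ones.

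The most abundant complex I transcripts per length were those of Ndufb8 and Ndufa3. Ndufb8, a membrane-arm subunit, had 637, 594 and 569 FPKM (fragments per unit of transcript length and library size) in recruited libraries, against 746, 925 and 796 FPKM in resident ones. Ndufa3, a small subunit of the same arm, had 589, 565 and 487 FPKM in recruited and 657, 992 and 804 FPKM in resident libraries. Neither gene's groups overlapped, and the log2 differences of counts were -0.49 ± 0.14 and -0.66 ± 0.18 in that order of genes.

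Ndufs1, a core subunit that carries iron-sulfur clusters in the NADH-oxidising arm, went the other way. It had 113, 128 and 92.0 CPM in recruited libraries, against 89.9, 74.4 and 74.1 CPM in resident ones. The groups did not overlap, although recruited replicate 3 and resident replicate 1 were close. The difference was 0.48 ± 0.17 (edgeR unadjusted p = 0.0210, adjusted p = 0.218), and Ndufs1 was the sole member higher at an unadjusted p under 0.05. It overlaps Ino80dos, an opposite-strand RNA gene by its name, and reads of the 2 genes cannot be told apart where strand is not recorded. The other core subunits of the NADH-oxidising arm had values on the other side of 0, with -0.30 for Ndufv1, which binds the flavin, and -0.65 for Ndufv2.

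Complex II, succinate dehydrogenase, which also belongs to the citric acid cycle, had the median nearest to 0 of the 5 complexes, at -0.29 over its 4 genes. Sdha, the flavoprotein that oxidises succinate, had 344, 328 and 340 CPM in recruited libraries, against 330, 289 and 277 CPM in resident ones. The recruited and resident ranges overlapped at their edges, and the difference was 0.18 ± 0.12 (edgeR adjusted p = 0.512). Sdhc, a membrane anchor, had 107, 107 and 113 CPM in recruited libraries, against 119, 166 and 152 CPM in resident ones. These groups did not overlap, and Sdhc was the only complex II gene lower at an unadjusted p under 0.05 (difference -0.41 ± 0.16, edgeR adjusted p = 0.245).

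Sdhb, the iron-sulfur subunit, had 386, 332 and 316 CPM in recruited libraries, against 386, 427 and 468 CPM in resident ones, with recruited replicate 1 and resident replicate 1 almost equal. Sdhd, the other anchor, had 274, 277 and 262 CPM in recruited libraries, against 279, 356 and 341 CPM in resident ones, with a narrow gap between the groups. Their differences were -0.31 ± 0.14 for Sdhb and -0.26 ± 0.13 for Sdhd.

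Complex III, the cytochrome bc1 complex, had a median of -0.57 over 9 genes, with 5 lower and 0 higher at an unadjusted p under 0.05. These 5 were its small subunits. Uqcrh, the hinge protein beside cytochrome c1, had 86.6, 78.6 and 69.3 CPM in recruited libraries, against 96.6, 148 and 157 CPM in resident ones, a difference of -0.78 ± 0.20 (edgeR adjusted p = 0.139). Uqcr11 had 740, 623 and 622 FPKM in recruited and 862, 1229 and 925 FPKM in resident libraries, with no overlap. Uqcrb averaged 725 ± 64.1 FPKM in recruited and 1037 ± 211 FPKM in resident libraries, the highest mean FPKM of any member over the 6 libraries. Uqcrq, a small subunit that overlaps Gdf9, had a difference of -0.63 ± 0.17.

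The larger subunits of complex III lay nearer to 0. Uqcrc2, a core protein on the matrix side, had 110, 114 and 104 CPM in recruited libraries, against 111, 93.7 and 111 CPM in resident ones. Its groups overlapped throughout, and the difference was 0.05 ± 0.14. The catalytic subunits Cyc1 (cytochrome c1) and Uqcrfs1 (the Rieske iron-sulfur protein), and the other core protein Uqcrc1, had differences of -0.22, -0.29 and -0.17, none at an unadjusted p under 0.05.

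Complex IV, cytochrome c oxidase, had 20 genes, 16 of them tested, with a median of -0.62 and 10 lower and 0 higher at an unadjusted p under 0.05. Cox6b1, a subunit on the cytochrome c side, had 217, 196 and 180 CPM in recruited libraries, against 261, 402 and 374 CPM in resident ones. Ndufa4 had 74.9, 65.8 and 71.8 CPM in recruited libraries, against 92.7, 148 and 158 CPM in resident ones. In both genes resident replicates 2 and 3 stood well above resident replicate 1, which was itself above every recruited library. The differences were -0.81 ± 0.18 for Cox6b1 (edgeR adjusted p = 0.107) and -0.91 ± 0.21 for Ndufa4 (edgeR adjusted p = 0.116).

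Among the other ubiquitous subunits of complex IV, Cox6c averaged 161 ± 18.3 CPM in recruited and 259 ± 52.4 CPM in resident libraries. Cox6a1, the form of subunit 6a found outside muscle, had 724, 714 and 685 FPKM in recruited libraries, against 819, 1069 and 1016 FPKM in resident ones. Neither overlapped between groups. Cox7a2l, the supercomplex factor that the rule places beside them, averaged 57.5 ± 3.28 CPM in recruited and 75.0 ± 16.2 CPM in resident libraries and did overlap.

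The isoforms of complex IV known from heart and skeletal muscle, testis or lung were scarce beside the ubiquitous subunits. Cox8b and Cox8c had no count in any library, Cox7b2 had counts in resident replicate 1 alone (0.210 CPM), and Cox4i2 had at most 0.148 CPM, in recruited replicate 3. Cox7a1, the muscle form of subunit 7a, was the most abundant of them, with 2.92, 2.67 and 6.22 CPM in recruited libraries, against 5.98, 11.2 and 6.89 CPM in resident ones. Cox6a2 and Cox6b2 stayed under 2 CPM in every library, with differences of -1.85 ± 1.15 and -1.17 ± 1.02, whose errors are too wide to give a size. Cox6a2 overlaps Itgad, an integrin gene. Ndufa4l2 had no count in resident replicate 2 and at most 1.00 CPM elsewhere.

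Complex V, the ATP synthase, had 16 genes with a median of -0.50, of which 9 were lower and 0 higher at an unadjusted p under 0.05. The small membrane subunits Atp5k, Atp5l and Atp5j2 (e, g and f) had a median of -0.83, the c ring genes Atp5g1 to Atp5g3 -0.59, the stalk genes -0.50, and the 5 genes of the catalytic F1 part -0.33. These parts also differed in transcript length, given below, and the part of length in the contrast was not tested. Atp5k had 46.6, 39.4 and 37.5 CPM in recruited libraries, against 59.8, 90.8 and 82.6 CPM in resident ones, a difference of -0.92 ± 0.20 (edgeR adjusted p = 0.107). Atp5j2 had 125, 119 and 113 CPM in recruited libraries, against 155, 245 and 235 CPM in resident ones, a difference of -0.83 ± 0.19 (edgeR adjusted p = 0.110). Both genes were without overlap, with resident replicate 1 again the lowest resident library.

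Atp5h, subunit d of the stalk, averaged 119 ± 8.45 CPM in recruited and 198 ± 41.8 CPM in resident libraries, with no overlap (edgeR adjusted p = 0.122). Atp5j, coupling factor 6 of the stalk, was the complex V transcript with the highest mean FPKM, at 739 ± 67.8 FPKM in recruited and 978 ± 164 FPKM in resident libraries. Its groups overlapped, and the difference of counts was -0.44 ± 0.17. Atp5j overlaps Gabpa, whose own difference was 0.85 ± 0.26, so that the 2 overlapping genes had differences of opposite sign. Atp5b, the catalytic beta subunit (chosen after its values were seen, as a long transcript of the complex), had 938, 999 and 856 CPM in recruited libraries, against 845, 952 and 1056 CPM in resident ones, with full overlap and a difference of -0.03 ± 0.13.

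The 3 c ring genes encode the same mature subunit, and reads that fit several of them were divided by the authors' quantification, so their individual values are uncertain. Atp5g1 had 113, 103 and 101 CPM in recruited libraries, against 119, 170 and 188 CPM in resident ones. Atp5g3 had 168, 187 and 148 CPM in recruited libraries, against 146, 254 and 241 CPM in resident ones. Atp5g2 was the scarcest, at 8.75 ± 0.963 CPM in recruited and 15.2 ± 6.03 CPM in resident libraries. Resident replicate 1 lay within the recruited range for Atp5g2, below it for Atp5g3 and above it for Atp5g1. Atp5s averaged 7.91 ± 2.82 CPM in recruited and 7.99 ± 6.06 CPM in resident libraries.

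**Figure D2:**
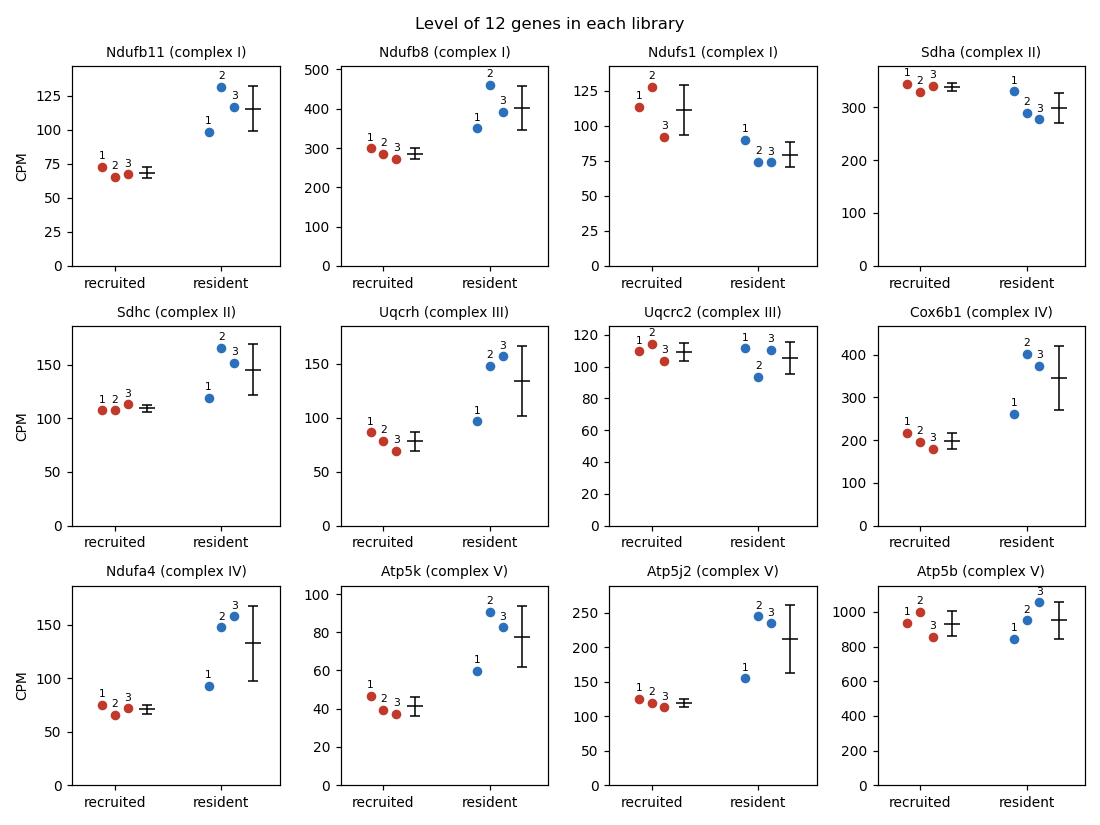
CPM of 12 genes in each library (points, numbered by replicate) with the group mean and SD (bars), recruited libraries left of resident ones. Resident replicate 1 lies between the recruited libraries and resident replicates 2 and 3 in the small subunits, while Ndufs1 and Sdha are highest in recruited libraries and Uqcrc2 and Atp5b overlap.

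As a share of all FPKM, the 84 genes together held 2.95%, 2.82% and 2.73% in recruited libraries, against 3.23%, 4.00% and 3.67% in resident ones. Complex I held 0.952 to 1.00% in recruited and 1.13 to 1.42% in resident libraries. Complex III held 0.388 to 0.430% against 0.459 to 0.562%, complex IV 0.641 to 0.705% against 0.771 to 0.990%, and complex V 0.627 to 0.680% against 0.732 to 0.903%, with recruited libraries first in each pair. These ranges did not overlap. Complex II held 0.1234 to 0.1318% in recruited and 0.1322 to 0.1367% in resident libraries, which did not overlap either but lay close together. The differences between complexes were not tested, since genes of a complex are not replicates.

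**Figure D3:**
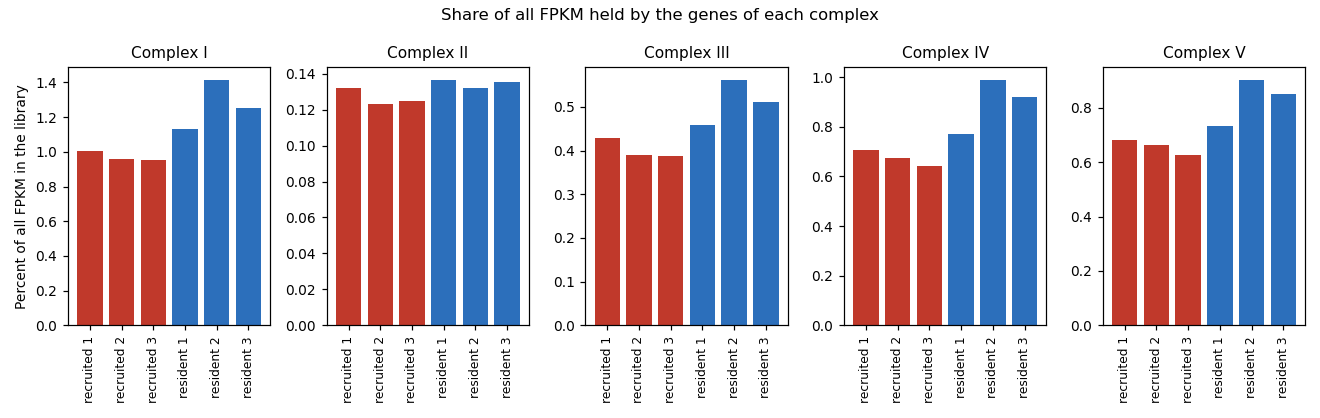
Percent of all FPKM held by the genes of each complex in each library, each panel with its own axis from 0. The bars of resident replicates 2 and 3 are the tallest in complexes I, III, IV and V, and complex II is nearly level over the 6 libraries.

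The log2 difference varied with transcript length, both among these genes and over the whole table. Effective length, the transcript length less the mean fragment length as RSEM uses it, was derived from the expected counts and FPKM. It is 1 value per gene, so for a gene with several transcripts it need not be the length of the main one. The 60 tested members under 1000 bases had a median difference of -0.59, with 46 lower and 0 higher at an unadjusted p under 0.05, and the 20 members of 1000 bases and over had a median of -0.22, with 5 lower and 1 higher. Genes outside the pathway ran the same way by length: the 1254 under 1000 bases had a median of -0.42, the 2838 between 1000 and 2000 bases -0.12, and the 4401 between 2000 and 4000 bases 0.15. In those bands the 60, 16 and 4 members had medians of -0.59, -0.24 and 0.03. At an unadjusted p under 0.05, 76.7% of the members under 1000 bases were lower, against 30.1% of the other genes of that length. The 2 sets were not matched for length or level within the band, where the members' median length was 386 bases.

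Across genes, Spearman's rho between log2 difference and effective length was 0.69 over the 80 members and 0.34 over 11339 tested genes with a length. It was 0.49 in complex I, 0.80 in complex II, 0.68 in complex III, 0.58 in complex IV and 0.89 in complex V. Genes are not independent replicates and share these 6 libraries, so no p is given. Sdha, the longest member with 2673 bases, and Ndufs1 with 2550 bases were 2 of the 5 members with a positive difference. The others were Uqcrc2 (1696 bases), Ndufa10 (1022 bases) and Ndufa4l2 (778 bases). By this value per gene, some longer members went against the trend. Ndufa11, with 2476 bases, had -0.54, and Ndufv2, Uqcrq and Ndufa13, of 1064 to 1355 bases, had -0.65, -0.63 and -0.61. Atp5k, the shortest with 116 bases, had the most negative difference of complex V. All 16 tested genes of complex IV were under 1000 bases, and complex II ranged from 893 to 2673 bases, so that complex and length are partly the same division. Parts of a complex differed likewise. Median lengths were 458 bases for accessory and 1355 bases for core subunits of complex I. In complex V they were 292 bases for the e, f and g genes, 530 for the c ring, 488 for the stalk and 981 for F1.

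**Figure D4:**
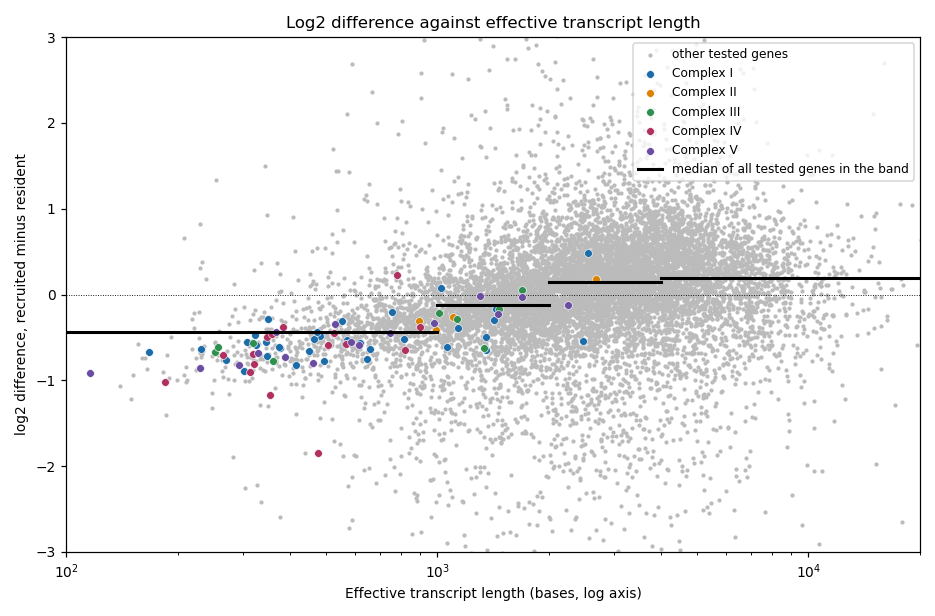
Log2 difference (recruited minus resident) against effective length (log axis) for every tested gene with a length (points beyond 3 in either direction are not drawn), with members coloured by complex and black lines for the median of all tested genes in each length band. The members under 1000 bases lie around and below the band median of -0.43, and most of the longer ones lie nearer to 0.

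Within a complex the short members could be set against the long ones in each library. In complex I the summed CPM of its 26 genes under 1000 bases was 2.53, 2.36 and 2.49 times that of its 9 longer genes in recruited libraries, and 2.79, 3.05 and 2.87 times in resident ones. In complex V the same ratio was 0.874, 0.799 and 0.807 in recruited libraries, against 0.950, 1.24 and 1.18 in resident ones. Neither complex overlapped between groups.

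When a smooth trend of counts on length was removed in each library, the members' median became -0.05, with 49 negative and 31 positive differences. At an unadjusted p under 0.05, 6 were then lower (Cox7b, Ndufa11, Ndufb11, Ndufc2, Ndufv2 and Uqcrq) and 2 higher (Ndufa10 and Ndufs1), against 6.61% and 6.39% of all tested genes. This step takes out any difference that goes with length, whatever its source. The libraries also differed in fragment length: the effective length of Atp5h came to 381, 377 and 389 bases in recruited libraries and 393, 387 and 397 bases in resident ones, which is a shorter mean fragment in resident libraries, with recruited replicate 3 above resident replicate 2. The part of fragment length in the result was not tested.

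Resident replicate 1 stood apart from the other 2 resident libraries throughout. It was the lowest resident library for 73 of the 80 tested members, while the highest of all 6 libraries was resident replicate 2 for 58 members and resident replicate 3 for 19. The recruited libraries all lay below both resident replicates 2 and 3 for 71 members. That ordering leaves out 1 library, so it is easier to meet than the ordering of all 6. Shares over all tested genes were not taken for these orderings. Among members under 1000 bases the median deviation from each gene's mean log2 CPM was -0.22, -0.28 and -0.34 in recruited libraries, against -0.06, 0.53 and 0.40 in resident replicates 1, 2 and 3. The 1254 other genes of that length had -0.15, -0.22 and -0.23 in recruited libraries, against -0.06, 0.39 and 0.33 in resident ones, in the same order of libraries.

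**Figure D5:**
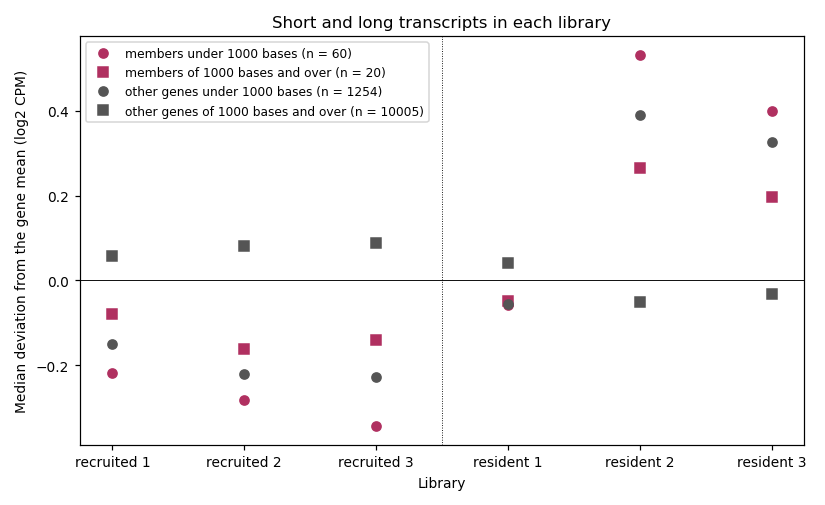
Median deviation of each library from the gene mean (log2 CPM) for members and other genes, under 1000 bases (circles) and of 1000 bases and over (squares). Resident replicates 2 and 3 stand above 0 for members of both lengths and for other short genes, and resident replicate 1 lies close to the recruited libraries.

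Other gene lists and marker lists showed how far this pattern extended beyond the pathway. The 82 tested cytosolic ribosomal protein genes, also short (median 544 bases), had a median difference of -0.74, and the 78 mitochondrial ribosomal protein genes (median 866 bases) had -0.37. The 20 cell cycle genes all had negative differences, with a median of -1.89. In edgeR's test, where 0.255% of all tested genes were called lower, 3 of these 20 passed the adjusted threshold. Their summed CPM was 401 to 468 in recruited and 762 to 1227 in resident libraries, with resident replicate 2 highest, and their median length was 2295 bases. Their part in the result was not tested.

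Of the marker lists for other cells, the 9 dendritic cell genes summed to 82.7 to 232 CPM in recruited and 150 to 671 CPM in resident libraries, with resident replicates 2 and 3 highest, most of it from Cd209a, and Xcr1 and Clec9a under 2 CPM in every library. Batf3 of that list had 8.49 to 15.1 CPM in recruited and 19.1 to 47.5 CPM in resident libraries. Of its 6 tested genes, 5 had negative differences and 1, Ccr7, a positive one. The 8 T and NK cell genes summed to 21.4 to 28.8 CPM in recruited and 40.6 to 58.5 CPM in resident libraries, nearly all of it from Cd2 (16.4 to 27.3 CPM in recruited and 35.3 to 58.5 CPM in resident libraries), with Cd3e at most 0.0494 CPM and Gzma, Ncr1 and Nkg7 at 0. The 10 neutrophil genes summed to 230 to 295 CPM in recruited and 109 to 136 CPM in resident libraries, with Ly6g and Ngp at 0. All 5 tested genes of that list had positive differences. Mmp8 had 33.4 to 89.0 CPM in recruited and 0.0456 to 8.63 CPM in resident libraries. Mmp9 had 13.5 to 65.7 CPM in recruited and 0.684 to 6.79 CPM in resident libraries. The summed levels of the Schwann cell, fibroblast, endothelial, muscle, adipocyte, B cell and mast cell lists overlapped between groups. Within the fibroblast list, where Gsn made up most of the sum and Pdgfra had no count, Col3a1 (a collagen gene) had 2.37 to 3.94 CPM in recruited and 7.62 to 28.2 CPM in resident libraries. Signs were mixed in that list, with 5 of its 8 tested genes negative and 3 positive, namely Gsn (0.16), Pi16 (0.88) and Postn (2.03). The part of these cells in the result was not tested.

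The genes that build the complexes lay between the subunits and the table as a whole. Their median effective length, 1251 bases, also lay between that of the members (517 bases) and that of all tested genes (2563 bases). The part of length was not tested. The 49 tested assembly factors had a median of -0.26, with 0 past the adjusted threshold, against 0.317% of all tested genes. At an unadjusted p under 0.05 in edgeR's test, 12 (24.5%) were lower and 2 higher, against 8.65% and 8.13% of all tested genes. Among the named ones was Pet100, a complex IV assembly factor of 1008 bases effective length, with 52.8, 45.0 and 48.9 CPM in recruited libraries, against 74.2, 96.1 and 77.9 CPM in resident ones. Sdhaf4, which assists Sdha, averaged 29.8 ± 2.32 CPM in recruited and 52.8 ± 11.6 CPM in resident libraries, and Ndufaf8, of complex I assembly, 17.2 ± 0.458 CPM and 30.1 ± 5.45 CPM in those groups. Their differences were -0.76, -0.83 and -0.81. These genes were named for the smallest p of their lists, so their large differences follow from the choice. Of the 49 assembly factors, 14 had positive differences, and the 2 higher at an unadjusted p under 0.05 in edgeR's test were Lyrm7 and Cox15 (0.59).

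Cox17, the copper chaperone of complex IV, averaged 89.3 ± 3.20 CPM in recruited and 131 ± 21.1 CPM in resident libraries. Uqcc2, a complex III assembly factor, averaged 54.8 ± 4.21 CPM in recruited and 87.1 ± 27.1 CPM in resident libraries. Atpif1, the inhibitor protein of the ATP synthase, had 195, 199 and 167 CPM in recruited libraries, against 244, 448 and 347 CPM in resident ones. None of these genes passed the adjusted threshold, and the groups of Cox17, Uqcc2 and Atpif1 did not overlap, with resident replicate 1 nearest to the recruited libraries in each. Lyrm7, a chaperone of the Rieske protein, had 0.955, 1.48 and 1.78 CPM in recruited libraries and no count in the resident ones.

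The feeder pathways were nearer to 0, and by median their genes were longer than the members (517 bases). Median lengths were 1701 bases for the electron carriers and 1401 bases for the mitochondrial carriers described below. The part of length in this contrast was not tested. The 16 citric acid cycle genes had a median of -0.11 and a median length of 2155 bases. At an unadjusted p under 0.05 in edgeR's test, 2 were lower and 2 higher, against 8.65% and 8.13% of all tested genes. Fh1, fumarase, averaged 46.8 ± 6.23 CPM in recruited and 75.2 ± 16.1 CPM in resident libraries, and Mdh2, mitochondrial malate dehydrogenase, 321 ± 16.3 CPM and 358 ± 33.1 CPM in those groups. The 18 electron carrier genes had a median of -0.16, with 2 lower and 0 higher, among them Etfb of the electron transfer flavoprotein at -0.63 ± 0.17. The 12 mitochondrial carriers had a median of -0.10, with 1 lower and 0 higher, and the most abundant, the ADP/ATP carrier Slc25a5, had -0.36 ± 0.14. The lower genes were 12.5%, 11.1% and 8.33% of the citric acid cycle, electron carrier and mitochondrial carrier lists, near the share of all tested genes.

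At an unadjusted p under 0.05 in edgeR's test, 8.65% of all tested genes were lower and 8.13% higher. The 15 tested regulators of mitochondrial genes (median length 2473 bases) had a median of -0.07, with 1 lower and 1 higher at that level. The higher one was Gabpa, a subunit of the ETS-type factor NRF-2, with 57.1, 44.0 and 41.7 CPM in recruited libraries, against 35.1, 20.2 and 23.8 CPM in resident ones (edgeR adjusted p = 0.173). The lower one was Ssbp1, the mitochondrial single-stranded DNA binding protein, at 51.4 ± 4.51 CPM in recruited and 75.5 ± 18.4 CPM in resident libraries. Neither passed the adjusted threshold.

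Since most members had differences of 1 sign, their promoters were searched for letters of factors known to act on respiratory genes. RefSeq promoters of the GRCm38.p6 build, from 250 bases before to 50 after each gene start, were at hand for 68 of the 84 genes and for 27025 genes in all, and both strands were read. The NRF1 letters GCGCANGCG were in 20 of the 68 (29.4%), against 7.03% of all genes. The ETS letters CCGGAAG were in 16 (23.5%), against 9.93%, and the YY1 letters AAGATGGCG in 7 (10.3%), against 1.64%. There were 6 members with both the NRF1 and the ETS letters. The 27025 genes were not limited to those tested here, and neither expression nor base composition of the promoters was matched. The exact run GCGCATGCG, which is 1 form of the NRF1 letters, was in 8 members (11.8%), against 1.95% of all genes. It lies wholly before the gene start in 6 of these and reaches past it in Uqcr11 and Uqcrc1. The 6 are printed here in the direction of the gene and up to its start, with the run (or its reverse complement) in capitals, to show the motif that genes of different complexes share:
Atp5g2 (chr15:102671071-102671099, minus strand): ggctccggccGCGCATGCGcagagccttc
Atp5k (chr5:108434431-108434459, minus strand): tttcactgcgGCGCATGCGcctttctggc
Atp5l (chr9:44920965-44920992, minus strand): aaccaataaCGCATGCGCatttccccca
Cox6a1 (chr5:115349102-115349130, minus strand): caggaacgggGCGCATGCGcgctctcgct
Ndufa11 (chr17:56717692-56717720, plus strand): cctgcactgcGCGCATGCGcgcacgcctt
Ndufa8 (chr2:36049339-36049357, minus strand): tcgctggagaCGCATGCGC

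The medians of members with and without these letters lay close to each other. Tested members with the NRF1 letters had a median of -0.57 (20 genes) and those without them -0.57 (46 genes). For the ETS letters the medians were -0.62 with and -0.57 without, and for the YY1 letters -0.53 with and -0.57 without. The 8 genes with the exact run had differences of -0.92 for Atp5k, -0.80 for Atp5g2, -0.68 for Atp5l, -0.67 for Uqcr11, -0.54 for Ndufa11, -0.50 for Cox6a1, -0.31 for Ndufa8 and -0.17 for Uqcrc1. A match is a run of letters and not a measured binding site. Nrf1 itself, chosen after its values were seen, had 55.3, 40.1 and 45.2 CPM in recruited libraries, against 44.0, 44.1 and 30.3 CPM in resident ones, with overlapping groups.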

How the data were processed

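Expected counts and FPKM per gene were deposited by the authors in 2 tables, per the file headers and the values. The deposited expected counts carry no normalization, and the deposited FPKM are scaled by library size and effective transcript length. Per the labels' protocols, RNA of about 400 sorted cells was amplified with the SMART-Seq v4 kit, which reads whole transcripts without molecular identifiers or strand, and Nextera XT libraries went through 2 paired-end runs. Sources used here do not say which library was in which run, so run and group cannot be told apart. Per the submitters' processing notes, reads were handled with STAR 2.5.3a and RSEM 1.2.28 on mm10, beside FastQC, Trimmomatic, edgeR and DESeq2. Sources used here give neither the annotation nor the strand setting. RSEM splits reads between similar copies, so genes with near-identical copies are uncertain, and 26 of the 84 members overlap another RefSeq gene.

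Of 24848 rows, 26 held dates in place of symbols and were left out (0.121 to 0.138% of each library). Expected counts were rounded and tested with edgeR 4.0.16 in R 4.3.3 (quasi-likelihood F test, TMM, filterByExpr, robust, a single term for the group) and adjusted by Benjamini-Hochberg over 11354 genes and a threshold of 0.05. The standard error is the log2 difference divided by the square root of F. The procedure was tested on simulated counts, drawn gene by gene with changes in randomly chosen genes. They held no length trend and no effect shared by the genes of a library. The simulation therefore does not bear on the length trend or on resident replicate 1. Floors of 3 counts cover counting error only. The lowest p of an exact two-sided permutation test of 3 against 3 libraries is 0.1, so none was used for single values. Replicates are separate pools of mice, and no source used here says whether equal numbers mark the same mice.

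The members, lists and tests were chosen with earlier results of these data known. Genes were named per complex as the 2 with the highest mean FPKM, the 3 with the smallest p and the most positive one. All Sdh genes, the tissue isoforms, the c ring genes and the genes that are no subunits were added, as were the gene with the smallest p and the one with the highest FPKM of each assembly, carrier, citric acid cycle and regulator list. Other members are given in groups, or where a count of 5 or fewer or a length calls for them, after their values were seen. Alternatives were DESeq2 1.42.0 and its size factors, upper-quartile factors, other filters, limma 3.58.1 (voom, and log2 of FPKM plus 1 or plus 0.1), a replicate block, a length offset and leaving out libraries.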

Additional observations from a re-analysis of the deposited data

How the results depend on the processing

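All named genes kept their direction with DESeq2 size factors, upper-quartile factors, DESeq2, no filter, and, for the 38 that passed it, a filter of 10 CPM in 3 libraries. Of the 45 named genes tested, 30 kept it in every alternative. The count of genes past the adjusted threshold, 36 in edgeR's fit, was 58 without a filter, 73 with the 10 CPM filter, 726 in DESeq2, and 72, 56 and 8 in limma on log2(FPKM + 1), log2(FPKM + 0.1) and log2(FPKM + 1) without a filter. It was 11 without resident replicates 2 and 3. DESeq2 called 28 members, against 0 in edgeR. With the length offset, 6 members were lower and 2 higher at an unadjusted p under 0.05, and the medians were -0.048 for all members, -0.075, 0.00016, 0.029, -0.063 and -0.069 for complexes I to V. Named genes that turned positive there were Atp5g3 (0.16), Atp5j (0.16), Atp5s (0.15), Cox17 (0.14), Cox6a1 (0.11), Mdh2 (0.088), Ndufa3 (0.15), Ndufb8 (0.020), Sdhb (0.011), Uqcc2 (0.021), Uqcr11 (0.029) and Uqcrb (0.076). The offset removes what goes with length by construction. Without resident replicates 2 and 3, 6 members were lower and 0 higher at that level, the medians were -0.17 for all members and -0.18, -0.080, -0.14, -0.19 and -0.13 for complexes I to V, and Atp5g2 (0.041), Atp5g3 (0.20), Ndufa4l2 (-0.18) and Uqcrc2 (-0.027) changed sign. The cause was not tested.

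Leaving out 1 library at a time gave 0 to 580 called genes and 0 to 44 called members, 34 to 66 members lower and 0 to 2 higher at an unadjusted p under 0.05, and medians of -0.69 to -0.43 for all members, -0.69 to -0.43 for complex I, -0.36 to -0.23 for II, -0.74 to -0.44 for III, -0.78 to -0.53 for IV and -0.63 to -0.43 for V. In these fits 5.42 to 11.4% of all tested genes were lower and 5.19 to 13.0% higher at that p. The 580 genes and 44 members were those without resident replicate 1. Atp5s ranged from -0.51 to 0.55, Ndufa4l2 from -0.35 to 0.78 and Uqcrc2 from -0.024 to 0.10. Atp5s, a scarce gene, was 0.30 in limma-voom, 0.27, 0.44 and 0.27 in the 3 limma fits on FPKM, and 0.40 with the replicate block. The resident and recruited libraries share replicate numbers, and the deviations of libraries with the same number correlated by 0.0155, 0.0626 and 0.0488. These values cannot show whether such libraries came from the same mice, since no unmatched libraries were compared. With the replicate block 28 genes and 0 members were called, and the members' median was -0.54. At an unadjusted p under 0.05 in that fit, 45 members were lower and 1 higher, against 6.57% and 8.19% of all tested genes. Depth limits Cox4i2 and Cox7b2, whose counts lie near the floor of 3, and the other isoforms under 2 CPM have wide errors.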
